A study of Caenorhabditis elegans with 16 samples.

Results

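The response of whole *C. elegans* to food withdrawal was compared between the *alfa-1(ok3062)* mutant and the wild-type strain N2, as the difference between their starvation effects in each gene. This difference, called the interaction below, is starved minus fed in the mutant, less starved minus fed in N2, on the log2 scale. A positive interaction therefore stands for a larger rise or a smaller fall in the mutant, and a negative one for a smaller rise or a larger fall. The members were all probe sets that the array's annotation pairs with exactly 1 gene symbol, 25546 of the 29317 on the array, and 25498 genes were tested after keeping 1 probe set a gene.

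The 4 groups were starved *alfa-1(ok3062)*, fed *alfa-1(ok3062)*, starved N2 and fed N2 worms, with 4 arrays each. Starved worms had spent 6 hr with gentle rocking in M9, a buffer without nutrients, and fed worms had food. The labels place the fed worms in the same buffer with food for that time, whereas the methods describe them as frozen when the starved set was put without food. The methods also grow the worms at a set temperature and keep the starved set at room temperature. Hours in buffer, temperature, age and food thus cannot be told apart from the sources. The labels give the stage as L3 and the methods as L3/L4, and the strain field of the labels names IW314 for the wild type and IW313 for the mutant, although the source field of the mutant samples also names IW314, where the methods name N2 and RB2260. The *ok3062* allele is a deletion with an insertion inside *alfa-1*, treated in the study as null, and all mutant arrays come from this 1 allele. Any other sequence difference between the strains cannot be told apart from the allele. The methods describe worms that were collected, rinsed and split evenly among tubes, and they do not say that the 4 samples of a group were separate cultures. Fed and starved samples may thus share a culture. The p-values measure the spread between samples, which may be technical.

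*alfa-1* is the worm orthologue of human C9orf72, a DENN-domain gene linked to amyotrophic lateral sclerosis and frontotemporal dementia and to lysosomal and nutrient signalling. Starved worms lower insulin-like signalling through the receptor DAF-2, which releases the FOXO factor DAF-16. In starved adults HLH-30, the TFEB orthologue, moves into the nucleus, where it acts on autophagy and lysosomal lipase genes. In starved L1 larvae the study saw HLH-30 in the cytoplasm of wild-type worms and in the nuclei of *alfa-1(ok3062)* worms. Larvae that lose food also slow growth: the molting cycle, in which a new cuticle of collagens and zona pellucida-domain proteins is laid down under the old one, pauses, and the germ line reduces its division.

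The level of *alfa-1* followed the genotype labels. Its log2 levels were 7.39, 7.56, 7.67 and 7.45 in starved mutant worms and 7.62, 7.63, 7.59 and 7.57 in fed mutant worms, against 9.50, 9.23, 9.59 and 9.30 in starved and 9.21, 9.39, 9.11 and 9.28 in fed N2 worms. No mutant array reached an N2 array. Its interaction was -0.25 (95% interval -0.52 to 0.03, limma). The sources used here do not say where its probe set lies relative to the deletion.

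The fed arrays were tighter than the starved ones. The root mean square deviation of an array from its group mean over all probe sets was 0.145 to 0.169 in the 8 fed arrays and 0.152 to 0.287 in the 8 starved arrays, with the largest values in the N2 starved arrays 3 (0.287) and 1 (0.244). Values without these 2 arrays, a choice made after seeing the data, are given for several families and genes. Of the 142 named genes the interaction moved by over 1.5 times or turned its sign in 5 without array 1, in 25 without array 3 and in 30 without both. All 6 intestinal, 4 body wall muscle, 3 pharyngeal, 6 neuronal, 6 germ line and 4 sperm markers stood above the median of the array, as did 3 of 4 hypodermal markers. The adult-stage markers *col-19*, *vit-2* and *vit-6* were also high, with mean log2 levels between 11.48 and 12.08, although the label gives a larval stage. Fewer cells of a type and less RNA per cell cannot be told apart in such whole-worm samples.

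The starvation effects of the strains ran together across genes, and no single gene differed past the adjusted threshold. In the mutant 2791 genes (10.9%) rose and 3649 (14.3%) fell with starvation at an adjusted p under 0.05 by limma, and in N2 2759 (10.8%) rose and 2948 (11.6%) fell. In both strains 3700 genes (14.5%) passed in the same direction and 0 in opposite directions. Over the 25498 genes, which are not independent replicates and whose arrays were normalized together, the effects of the strains had a Pearson correlation of 0.808, and 74.4% had the same sign. The SD of the effect over genes was 0.41 in the mutant and 0.374 in N2.

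Of the 25498 genes 0 passed the test of the interaction (0%), with a smallest adjusted p of 0.735 by limma. At an unadjusted p under 0.05 there were 1641 genes (6.44%), of which 695 (2.73%) were positive and 946 (3.71%) negative. Further normalization by cyclic loess turned this split round, to 899 positive and 740 negative genes. The positive count was 1242 without the N2 starved array 1 and 1143 without the mutant starved array 1, and the negative count 1495 without the mutant starved array 1. The median interaction was -0.02, the middle part between the quartiles ran from -0.15 to 0.13, and the 5% and 95% quantiles were -0.34 and 0.42. The median standard error was 0.171, and a 95% interval typically reached 0.363 to either side of the value (median over genes). For 23729 genes (93.1%) the interval lay within -1 to 1, a bound of 2-fold in either direction. An interaction over 1 in size was measured for 109 genes (0.427%). A p that misses the threshold does not show that the strains respond alike. The intervals are not adjusted for the number of genes. With 4 arrays a group, larger differences also missed the adjusted threshold, such as that of *C45B2.3* (1.82).

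A starvation effect that passed in 1 strain mostly had the same sign in the other, as did 74.4% of all genes. The shared sign does not give the size of the effect in the other strain. Of 2740 genes (10.7%) that passed in the mutant and not in N2, 2517 (91.9%) had the same sign in N2, and of 2007 (7.87%) that passed in N2 and not in the mutant, 1878 (93.6%) had the same sign in the mutant. The interaction itself reached an unadjusted p under 0.05 in 587 and 325 of these genes and an adjusted one in 0. In 919 genes the interaction was at an unadjusted p under 0.05 with effects of opposite sign in the strains, and 0 of these passed the starvation test in both.

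**Figure D1:**
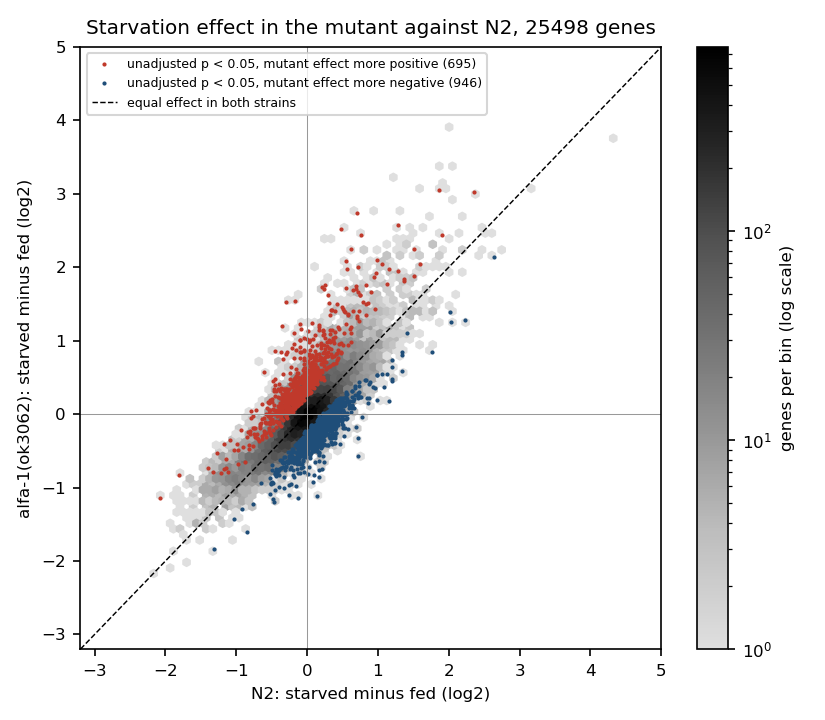
Starvation effect of each of 25498 genes in *alfa-1(ok3062)* (vertical axis, starved minus fed, log2) against that in N2 (horizontal axis), as counts per bin, with genes at an unadjusted p under 0.05 for the interaction in red (695, mutant effect more positive) and blue (946, more negative). The cloud lies along the dashed line of equal effects (r = 0.808), and 0 genes pass after adjustment.

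The 10 genes of smallest interaction p in the positive direction held 5 protein-coding genes, 2 pseudogenes and 3 non-coding RNA genes. Of these 10, only *C45B2.3*, *T20D4.12* and *fbxa-162* had a mean level above the array-wide median. The interactions of the 10 ran from 0.64 to 1.82, and each had an adjusted p of 0.735 by limma. The largest was that of *C45B2.3*, a gene on the X chromosome named only by its sequence. It read 7.96, 8.06, 7.04 and 8.65 in starved mutant worms and 6.69, 6.17, 6.47 and 6.26 in fed mutant worms, against 6.85, 6.36, 6.20 and 6.88 in starved and 6.57, 6.93, 6.75 and 7.21 in fed N2 worms. All starved mutant arrays lay above all fed mutant arrays, while the starved and fed N2 arrays overlapped, with an interaction of 1.82 (95% interval 1.04 to 2.61, limma).

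*C05B5.17* (1.16), *C11E4.10*, a non-coding RNA gene (0.79), and *H36N01.4*, another (0.98), had the same form. Each rose in the mutant, by 1.24, 0.81 and 1.15, and had an N2 effect of 0.07, 0.03 and 0.17. The fed arrays of the strains did not overlap for *T20D4.12* and *T28A11.20*. The fed mutant arrays of *T28A11.20* read 4.81, 4.51, 4.42 and 4.33, below its 5.74, 5.65, 5.38 and 6.20 in starved mutant worms and below its N2 levels of 6.11, 5.88, 5.39 and 5.54 in starved and 5.65, 5.79, 5.42 and 6.44 in fed worms. It rose by 1.22 in the mutant, where the starved arrays overlapped both N2 groups.

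*fbxa-162*, an F-box A gene annotated as a pseudogene, rose strongly in both strains, by 3.05 in the mutant and 1.86 in N2. Its levels were 8.43, 8.01, 8.40 and 8.19 in starved and 5.54, 5.18, 5.25 and 4.86 in fed mutant worms, and 8.78, 8.30, 9.17 and 8.08 in starved and 6.97, 6.74, 6.59 and 6.61 in fed N2 worms. The starved arrays of the strains overlapped and the fed arrays did not, so the interaction of 1.19 came with a lower fed level in the mutant. The gene of smallest p, the pseudogene *Y19D10B.4* (0.73, 95% interval 0.45 to 1.02), fell by 0.79 in N2 and had an effect of -0.05 in the mutant, where it was at the low N2 level with food as well. *bgnt-1.8* fell by 0.41 in the mutant and 1.18 in N2, and *W02D7.9*, a non-coding RNA gene, rose by 0.34 in the mutant with -0.30 in N2.

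The 10 negative genes of smallest p had interactions between -0.52 and -1.01, again with an adjusted p of 0.735 each by limma. Only *ugt-64*, *R02F2.4*, *cyb-2.1* and *F48G7.8* among them had a mean level above the array-wide median. *ugt-64*, a UDP-glucuronosyltransferase gene of the detoxification enzymes, fell by 0.96 in the mutant and had an effect of -0.26 in N2. Its levels were 7.21, 6.68, 7.05 and 6.94 in starved and 7.85, 7.92, 8.10 and 7.87 in fed mutant worms, against 8.41, 8.54, 8.49 and 8.52 in starved and 8.68, 8.67, 8.90 and 8.74 in fed N2 worms. The 4 groups did not overlap at any point, with the starved mutant worms lowest. *F23B2.7* had the largest negative value of the 10, -1.01 (95% interval -1.43 to -0.59), with 4.67, 4.58, 4.24 and 4.39 in starved and 5.62, 5.96, 5.45 and 5.42 in fed mutant worms, and 5.51, 5.75, 5.59 and 5.71 in starved and 5.81, 6.11, 5.61 and 5.56 in fed N2 worms. Its starved mutant arrays stood alone, and the other 3 groups overlapped.

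*cyb-2.1*, which encodes a B-type cyclin, showed the opposite form, a rise in N2. It read 8.70, 8.61, 8.67 and 8.80 in starved and 8.57, 8.82, 8.55 and 8.39 in fed mutant worms, which overlapped, against 8.92, 9.05, 9.05 and 9.03 in starved and 8.38, 8.33, 8.30 and 8.51 in fed N2 worms, which did not. Its interaction was -0.52 (95% interval -0.78 to -0.25). *R02F2.4* likewise rose in N2 by 0.56, with 0.02 in the mutant, and *F47B10.3* rose in N2 by 0.36, with -0.25 in the mutant. *H03A11.10* and *F43D9.11*, both non-coding RNA genes, *W07A12.8*, *F48G7.8* and *pqn-78*, of the glutamine- and asparagine-rich class, fell in the mutant by 0.75, 0.67, 0.40, 0.41 and 0.82, with N2 effects of 0.21, -0.07, 0.17, 0.24 and 0.01.

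**Figure D2:**
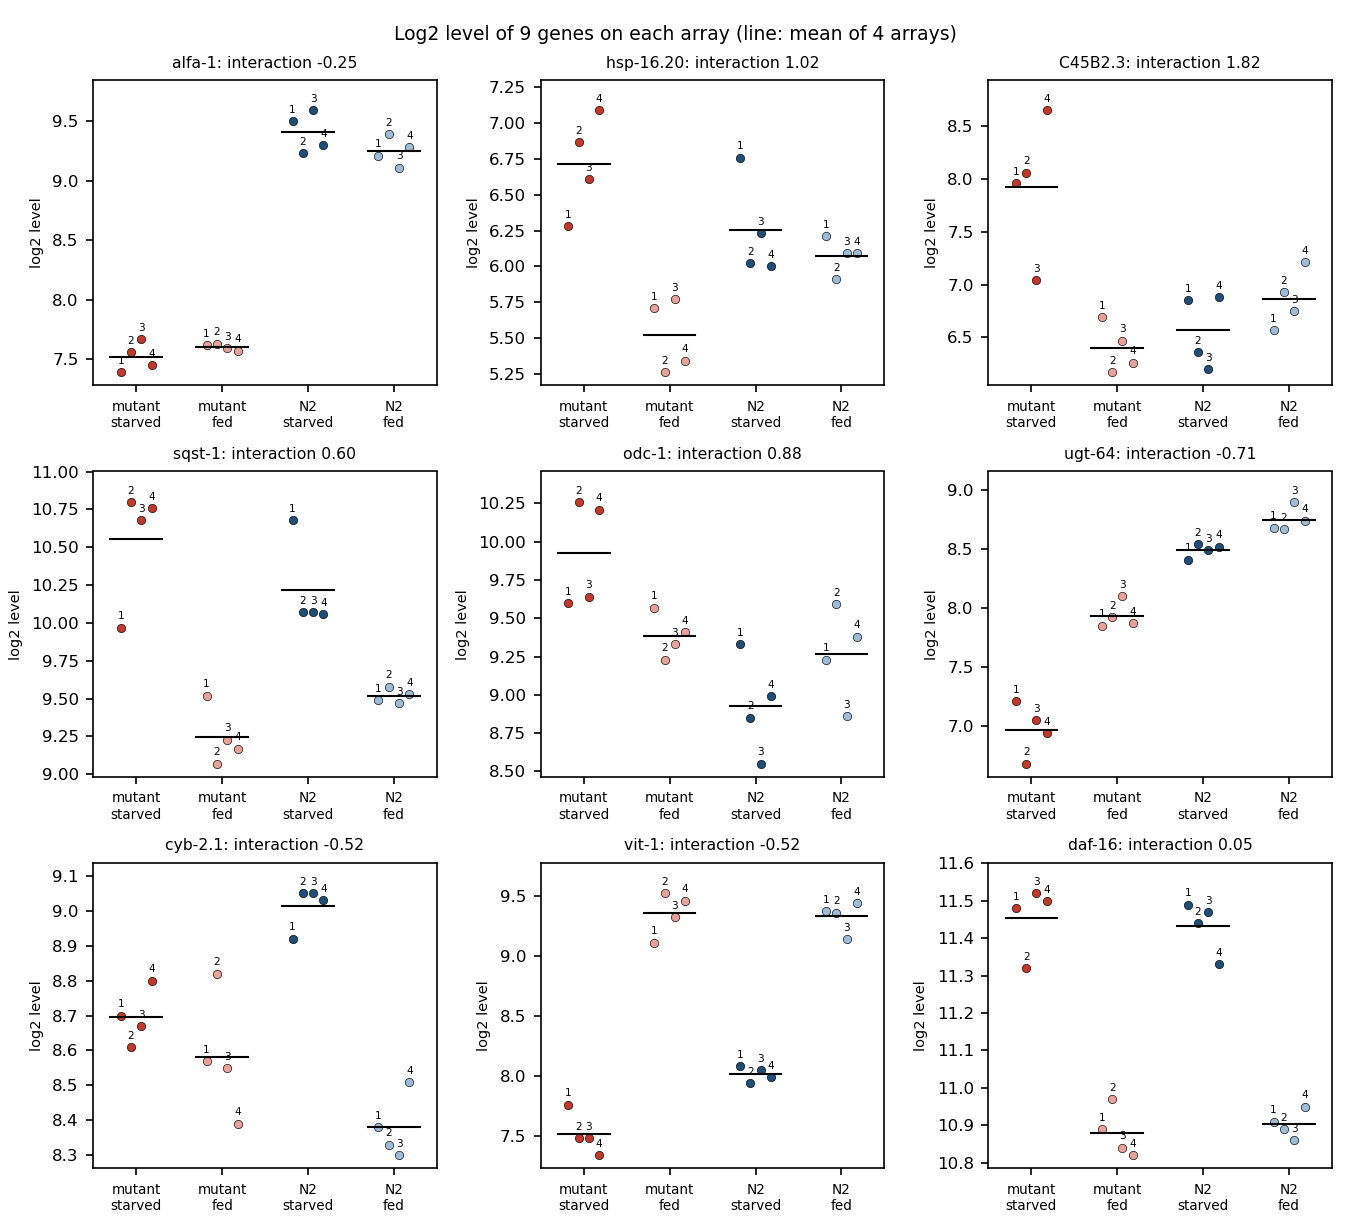
Log2 level of 9 genes on each of the 16 arrays (points with their replicate number) in starved mutant, fed mutant, starved N2 and fed N2 worms, with the mean of 4 arrays as a line and the interaction in each title. The mutant arrays of *alfa-1* lie below all N2 arrays, *hsp-16.20*, *C45B2.3*, *sqst-1* and *odc-1* have positive and *ugt-64*, *cyb-2.1* and *vit-1* negative interactions, and *daf-16* has an interaction of 0.05.

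Genes that starvation moved most were described next. Averaged over the strains, 4669 genes (18.3%) rose and 4929 (19.3%) fell with starvation by limma. This mean effect and the interaction are separate contrasts in the balanced design. Among the genes that rose, the median effect was 0.39 in the mutant and 0.37 in N2, and 49.8% had the larger rise in the mutant. The 389 genes that rose by over 1 differed more, with a median effect of 1.49 in the mutant and 1.15 in N2, and 74.3% had the larger rise in the mutant. At an unadjusted p under 0.05, 42 of the 389 were positive and 8 negative.

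The mean log2 level of the 389 genes showed which arrays carried this. It was 6.71, 7.24, 7.16 and 7.23 in starved and 5.47, 5.51, 5.45 and 5.42 in fed mutant worms, against 7.35, 6.63, 6.47 and 6.67 in starved and 5.52, 5.60, 5.43 and 5.66 in fed N2 worms. The starved mutant array 1 lay near 3 of the N2 starved arrays, and the N2 starved array 1 lay above all mutant arrays, so that the starved groups overlapped. The median interaction of these genes was 0.36 on all arrays, 0.50 without the N2 starved array 1, 0.28 without array 3 and 0.47 without both.

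Genes that fell by over 1, 303 in number, had a median effect of -1.07 in the mutant and -1.26 in N2, and 27.1% had the larger fall in the mutant. Their mean level was 7.24, 7.15, 7.13 and 7.05 in starved and 8.33, 8.13, 8.30 and 8.26 in fed mutant worms, and 6.78, 7.32, 6.35 and 7.40 in starved and 8.15, 8.33, 8.33 and 8.21 in fed N2 worms. The N2 starved arrays 1 and 3 lay below all starved mutant arrays and arrays 2 and 4 above them. The median interaction was 0.185 on all arrays and -0.225 without arrays 1 and 3, a reversal of its sign.

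The 5 largest rises were those of *mtl-1*, a metallothionein, *hil-1*, a linker histone, *Y47D7A.9*, *W02D7.11* and *R11A5.3*. *mtl-1* rose by 3.77 in the mutant and 4.32 in N2, and *hil-1* by 3.07 in the mutant and 3.14 in N2, so that the interaction was -0.55 (95% interval -1.23 to 0.13) and -0.07 (-0.65 to 0.51). *Y47D7A.9* rose by 3.91 in the mutant and 1.99 in N2, but its starved arrays read 7.42, 9.86, 8.52 and 9.40 in the mutant and 9.43, 7.39, 5.20 and 7.78 in N2, which overlapped, and the 95% interval of its interaction was -0.09 to 3.93. The 5 largest falls were those of *acs-2*, *clec-258*, *cyp-35A3*, *vit-4* and *F35D2.1*. *acs-2*, an acyl-CoA synthetase gene of mitochondrial fatty acid oxidation, had effects of -2.17 in the mutant and -2.17 in N2, which both passed. *vit-4*, a yolk protein gene, fell by 2.03 in the mutant and 1.67 in N2, and *cyp-35A3*, a cytochrome P450 gene, had -1.87 in the mutant and -1.86 in N2. The interactions of *acs-2*, *clec-258*, *cyp-35A3*, *vit-4* and *F35D2.1* were -0.01, -0.2, -0.01, -0.36 and 0.49 on all arrays. Without the N2 starved arrays 1 and 3 they were, in the same order, -0.77, -0.9, -0.46, -0.94 and -0.01.

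A total of 81 gene families, defined by symbol, was then described by the median interaction and by the number of members at an unadjusted p under 0.05, to be read against 2.73% positive and 3.71% negative among all genes. By sign alone, 45.6% of all genes were positive and 54.4% negative. These shares include dim probe sets, those with a mean level not above the array-wide median. Without them 267 genes were positive and 764 negative at an unadjusted p under 0.05. The shares of all genes are therefore an unlike background for bright families, such as those of protein synthesis, cell division and the respiratory chain. The numbers of members that rose or fell stand against 10.9% rises and 14.3% falls among all genes in the mutant and 10.8% and 11.6% in N2. Counts at an unadjusted p were small and depended on single arrays, so that their range with each of the 16 arrays left out in turn is given for several families. In each of them 0 members passed after adjustment over all genes. Members of a family can share probe sequence and cell types and are not replicates. Of the 76 families with 10 or more members, the highest medians belonged to cuticle collagens named by phenotype, antimicrobial peptides, patched-related genes, zona pellucida-domain and molting genes, small heat shock proteins and hedgehog-related genes. The lowest belonged to meiosis genes, germ granule and small RNA genes, superoxide dismutases, catalases and peroxiredoxins, cell cycle and DNA replication genes, nucleolar, DEAD-box and WD-repeat genes, and AMP-activated protein kinase genes with their partners.

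**Figure D3:**
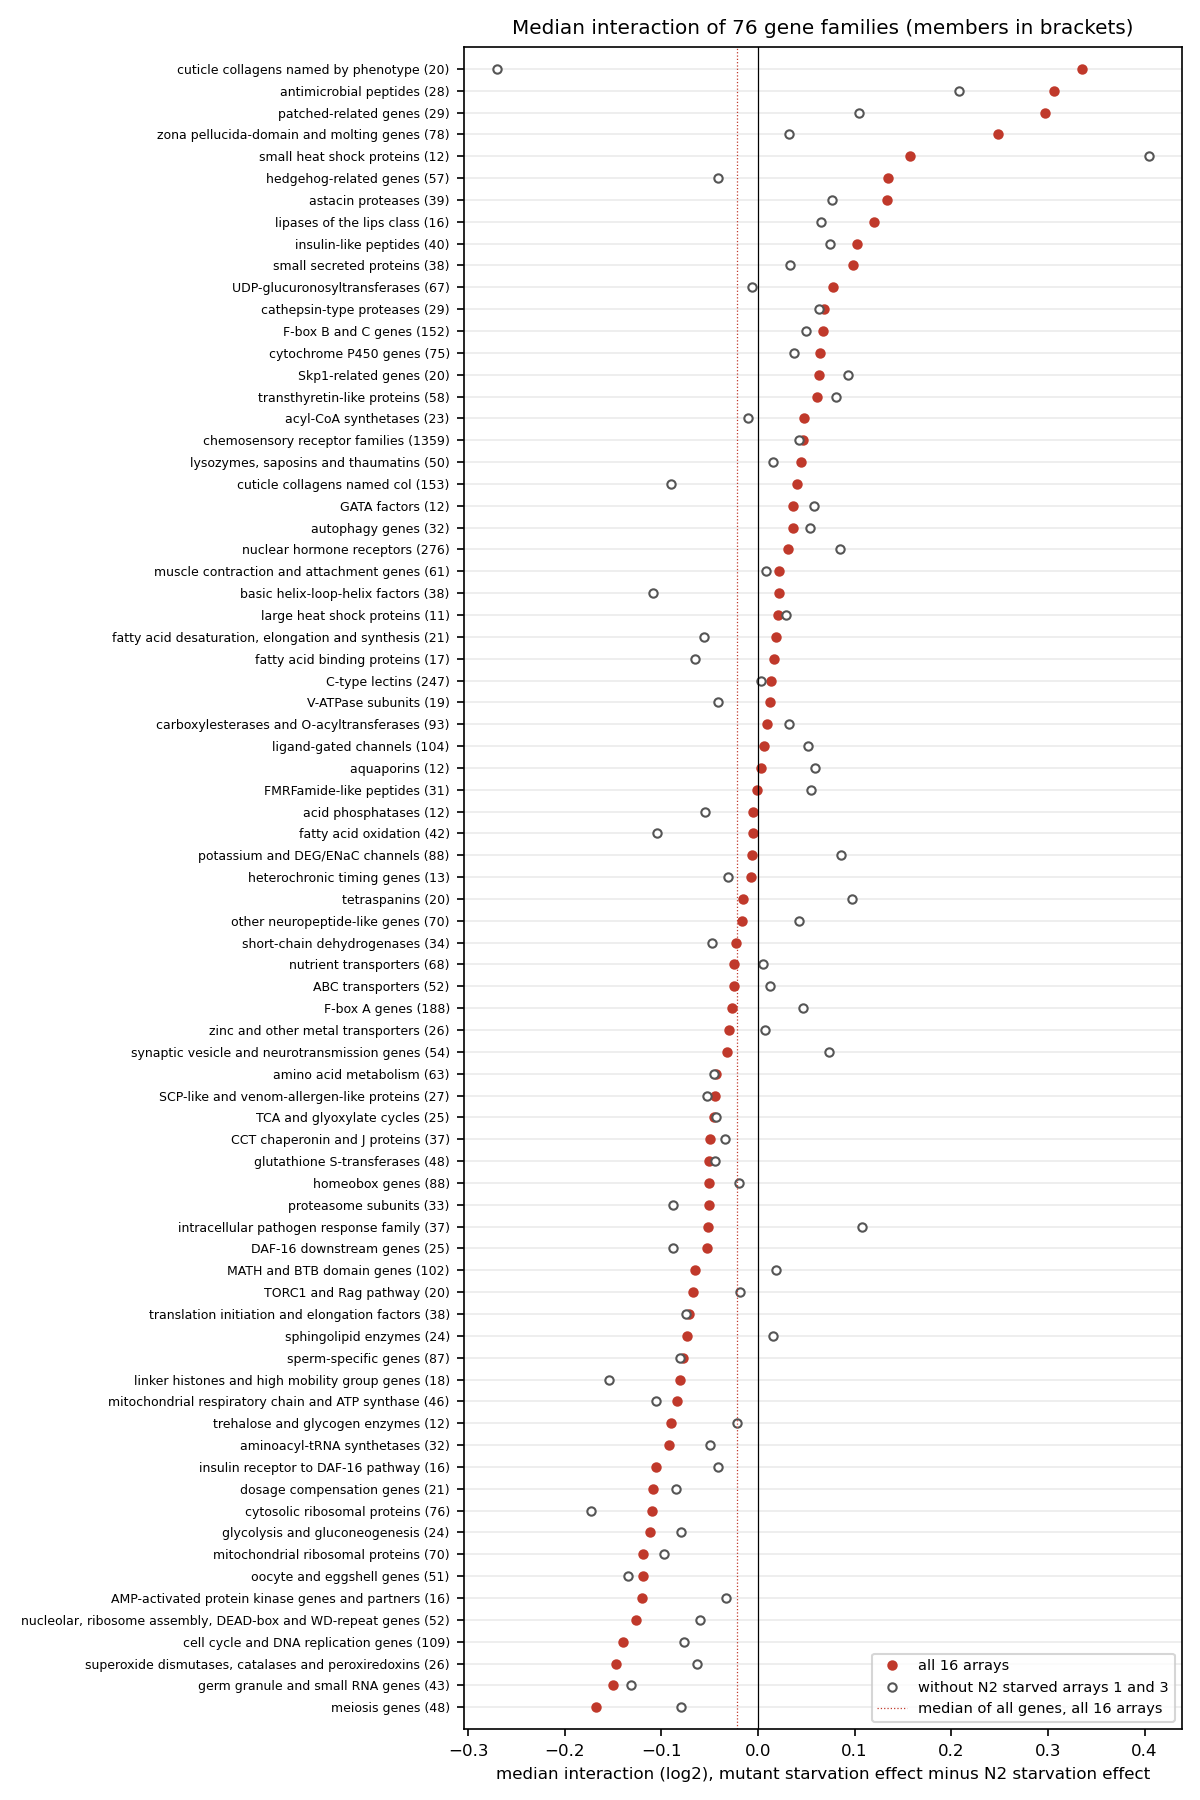
Median interaction (log2) of 76 families of 10 or more genes, sorted, on all 16 arrays (filled) and without the N2 starved arrays 1 and 3 (open), with the median of all genes dotted. Cuticle collagens named by phenotype lead at 0.34 on all arrays and are lowest, at -0.27, without the 2 arrays, whereas germ granule genes stand at -0.15 and -0.13.

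Cuticle collagens and molting, patched-related and hedgehog-related genes had more falls than rises past the threshold in both strains. Falls were more numerous in N2 on all arrays, which turned round without the N2 starved arrays 1 and 3 for all but the patched-related genes, of which 16 fell in the mutant and 17 in N2. All 4 hypodermal markers, each a collagen of these families, had a positive interaction too (median 0.20), with a mean level of 8.27 to 8.44 in starved and 8.72 to 9.04 in fed mutant worms, against 7.52 to 8.62 in starved and 8.59 to 9.06 in fed N2 worms, and their part in the family values was not tested. Of 20 cuticle collagens named by their phenotype (*dpy*, *sqt*, *rol*, *bli*, *lon*), 6 fell and 2 rose in the mutant and 16 fell and 2 rose in N2, with median effects of -0.64 in the mutant and -0.98 in N2. The interaction was positive in 19 of 20, with a median of 0.34 and 0 at an unadjusted p under 0.05. Their mean log2 level was 9.24, 9.48, 9.24 and 9.33 in starved and 9.84, 9.74, 9.84 and 9.85 in fed mutant worms, against 8.69, 9.36, 8.18 and 9.62 in starved and 9.63, 9.84, 9.90 and 9.74 in fed N2 worms. The N2 starved arrays 1 and 3 were below every starved mutant array and array 4 was above them all. Without arrays 1 and 3 the counts were 17 falls in the mutant and 7 in N2, and the median interaction was -0.27, with 16 of 20 negative and 7 of these at an unadjusted p under 0.05.

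The collagens of smallest p were *sqt-3* (0.38), *dpy-8* (0.67), *rol-6* (0.36) and *dpy-14* (0.29). Without the N2 starved array 3 *sqt-3* had 0.24, *dpy-8* 0.39 and *rol-6* 0.15, and without array 2 *dpy-14* had 0.17. *dpy-8* read 7.49, 8.62, 7.22 and 8.93 in the N2 starved arrays, a spread wider than the whole range of the starved mutant arrays, 8.50 to 9.04, and without arrays 1 and 3 its interaction was -0.04. *dpy-14* went the other way from the family, rising by 1.25 in the mutant and 0.96 in N2. The far larger class of collagens named *col* had a median of 0.04 over 153 genes, with 0 positive and 4 negative (2.61%) at an unadjusted p under 0.05. Among them *col-143* had -0.81, from a rise of 0.77 in N2 and an effect of -0.04 in the mutant.

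Of 78 zona pellucida-domain and molting genes, 21 fell in the mutant and 45 in N2, and the median interaction was 0.25, with 4 positive (5.13%) and 1 negative (1.28%) at an unadjusted p under 0.05. The positive count ranged from 1, without the fed N2 array 3, to 21, without the N2 starved array 4. *nhr-25*, a nuclear receptor gene required for molting and epidermal development, read 8.82, 9.38, 9.12 and 9.34 in starved and 9.07, 8.90, 8.92 and 8.87 in fed mutant worms, against 8.87, 8.63, 8.40 and 8.57 in starved and 8.83, 8.93, 8.80 and 8.78 in fed N2 worms. Its interaction was 0.44 (95% interval 0.09 to 0.80), with effects of 0.23 in the mutant and -0.22 in N2 that each missed the threshold. *cut-6* fell by 0.41 in the mutant and 0.82 in N2, *cutl-13* rose by 0.60 in the mutant with 0.08 in N2, both cuticlin-type genes, and *sym-3* had -0.44. Without the N2 starved arrays 1 and 3, 37 genes of the family fell in the mutant and 25 in N2, and its median interaction was 0.03.

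Patched-related genes, membrane proteins with a sterol-sensing domain that act in molting and cuticle formation, had a median interaction of 0.30, with 25 of 29 positive and 3 (10.3%) at an unadjusted p under 0.05, a count of 1 to 7 with each array left out. In the mutant 11 fell and in N2 17. *ptr-6* fell by 0.49 in the mutant and 1.03 in N2. Its starved arrays read 8.50, 8.91, 8.61 and 8.81 in the mutant and 8.55, 8.33, 7.84 and 8.22 in N2, nearly without overlap. *ptr-24* fell by 0.34 and 0.63 in the mutant and N2, and *ptr-8* had 0.38 in the mutant and -0.21 in N2. *daf-6*, which shapes the lumen of glial channels, had an N2 starved array 3 at 5.62, far from the other 3 at 6.94 to 7.18, and its interaction of 0.81 was 0.45 without that array. Without arrays 1 and 3 the family's median was 0.11, with 22 of 29 positive. The 57 hedgehog-related genes, which encode secreted proteins made largely in the epidermis, had a median of 0.14 with 0 positive and 1 negative (1.75%) at an unadjusted p under 0.05, and of -0.04 without these arrays. Of them *grl-24* had -0.56, from a rise of 0.54 in N2 and an effect of -0.02 in the mutant, and *grl-14*, *grd-11* and *grl-15* had 0.60, 0.34 and 0.49, or 0.39, 0.21 and 0.20 without the N2 starved array 3. The 39 astacin proteases had a median of 0.13, with 14 falls in the mutant and 17 in N2.

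Small heat shock proteins, chaperones that hold unfolded proteins, had the largest share of positive members of the lead families, 3 of 12 (25%), with 6 positive and 6 negative signs. In the mutant 7 rose and 1 fell, and in N2 4 rose and 2 fell. The 3 were the heat-inducible *hsp-16.20* (1.02), *hsp-16.41* (0.88) and *hsp-16.2* (0.77), paralogues whose probes may share sequence. *hsp-16.20* read 6.28, 6.87, 6.61 and 7.09 in starved and 5.71, 5.26, 5.77 and 5.34 in fed mutant worms, against 6.76, 6.02, 6.23 and 6.00 in starved and 6.21, 5.91, 6.09 and 6.09 in fed N2 worms. It rose by 1.19 in the mutant, where starved and fed arrays did not overlap, and had an effect of 0.17 in N2, where they did (interaction 95% interval 0.46 to 1.57). Fed mutant arrays lay below all fed N2 arrays.

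*hsp-16.41* rose by 0.65 and *hsp-16.2* by 0.97 in the mutant, with -0.23 and 0.20 in N2. *hsp-43* rose in both, by 0.79 in the mutant and 0.45 in N2. The family's median was 0.16 on all arrays and 0.41 without the N2 starved arrays 1 and 3, and -0.15 over the members left after dim probe sets were removed, a reversal. Among the 11 large heat shock proteins the median was 0.02, and *hsp-70* had 0.72, with an N2 fall of 0.93 and an effect of -0.21 in the mutant.

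Antimicrobial peptide genes of innate immunity had a median interaction of 0.31 over 28 genes, 21 of them positive, with 2 (7.14%) at an unadjusted p under 0.05. In the mutant 8 rose and 1 fell, and in N2 4 rose and 2 fell, with median effects of 0.24 in the mutant and -0.06 in N2. *cnc-1*, a caenacin, rose by 1.40 in the mutant and had 0.65 in N2. Its levels were 5.19, 5.71, 5.14 and 5.56 in starved and 3.94, 3.77, 4.71 and 3.58 in fed mutant worms, and 5.32, 4.43, 4.48 and 4.90 in starved and 4.31, 3.95, 4.10 and 4.16 in fed N2 worms, so that the starved groups overlapped through the N2 array 1. *cnc-9* had 0.62 and *cnc-8* 0.51, while *abf-5*, an antibacterial factor, had -0.47 and rose by 0.69 in N2. The family's median was 0.07 without the N2 starved array 3 and 0.21 without arrays 1 and 3.

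Other defence families lay nearer to 0. The 247 C-type lectins had 4 positive (1.62%) and 11 negative (4.45%) members, the negative ones 6 to 17 with each array left out, among them *clec-77*, annotated as a pseudogene, which rose by 0.99 in N2 with 0.19 in the mutant. The 188 F-box A genes had 10 positive (5.32%) and 9 negative (4.79%), and 17 positive and 6 negative without the N2 starved array 1. F-box B and C genes, adaptors of ubiquitin ligases, had 12 (7.89%) positive and 2 (1.32%) negative of 152, and 32 rose in the mutant and 20 in N2. *fbxc-51* rose by 1.05 in the mutant and 0.40 in N2, *fbxb-21* by 0.56 in the mutant with -0.05 in N2, and *fbxc-19* had the negative value -0.63. The 20 *skr* genes, which link F-box proteins to the ligase, had 2 positive (10%), *skr-21*, up by 0.60 in the mutant with 0.16 in N2, and *skr-7*, up by 0.85 with 0.24. The infection response gene *irg-2* read 7.09, 8.18, 7.84 and 8.0 in starved and 5.54, 5.60, 5.63 and 5.36 in fed mutant worms, and 7.96, 6.62, 5.40 and 6.68 in starved and 6.08, 6.49, 5.12 and 6.47 in fed N2 worms. It rose by 2.24 in the mutant, and the N2 groups overlapped, with an effect of 0.63 and an interaction of 1.62 (95% interval 0.38 to 2.85).

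Most germ line and cell division genes had small negative interactions. The interaction was also negative in all 6 germ line markers (median -0.11), all 3 adult-stage markers (-0.20) and 3 of 4 sperm markers (-0.21), most of them members of these families or yolk and collagen genes. The mean of the germ line markers was 11.01 to 11.18 in starved and 11.02 to 11.14 in fed mutant worms, against 11.24 to 11.34 in starved and 11.09 to 11.14 in fed N2 worms, and that of the adult-stage markers 11.72 to 12.03 in starved and 11.57 to 11.77 in fed mutant worms, against 11.98 to 12.23 in starved and 11.51 to 11.82 in fed N2 worms. Their part in the family values was not tested. Of 109 cell cycle and DNA replication genes, 9 rose and 2 fell in the mutant, and 34 rose and 1 fell in N2. The interaction was negative in 99 of 109, with a median of -0.14, and 8 (7.34%) were negative and 0 positive at an unadjusted p under 0.05. Their mean log2 level was 9.40, 9.23, 9.42 and 9.33 in starved and 9.25, 9.34, 9.27 and 9.29 in fed mutant worms, against 9.42, 9.41, 9.59 and 9.43 in starved and 9.28, 9.28, 9.24 and 9.31 in fed N2 worms. The starved N2 arrays lay above all fed N2 arrays, the starved mutant arrays overlapped the fed ones, and N2 starved array 3 was the highest. The negative count was 2 without N2 starved array 3 and 14 without mutant starved array 3, and the N2 rises numbered 19 without N2 starved array 3 or fed array 3. Without N2 starved arrays 1 and 3, 12 rose in the mutant and 12 in N2, and 88 of 109 interactions were negative with a median of -0.08. After cyclic loess the median was -0.07.

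*klp-15*, a spindle kinesin of the minus-end directed class, had -0.58 with an N2 rise of 0.49 and an effect of -0.10 in the mutant. *klp-7*, the microtubule-depolymerizing kinesin, had -0.26 and *mcm-3AP* -0.24, and neither passed the starvation test in a strain.

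Of 48 meiosis genes, 6 rose in the mutant and 15 in N2, and 0 fell in either. The interaction was negative in 44, with a median of -0.17 and 4 (8.33%) at an unadjusted p under 0.05: *dsb-3* (-0.36), which is needed for meiotic double-strand breaks, *zhp-2* (-0.38) and *htp-1* (-0.43), of the synaptonemal complex and chromosome axis, and *com-1* (-0.32), which acts in break repair. The mean level of the family was 9.02, 8.79, 9.03 and 8.94 in starved and 8.83, 8.97, 8.87 and 8.86 in fed mutant worms, and 9.10, 9.05, 9.26 and 9.01 in starved and 8.89, 8.86, 8.84 and 8.91 in fed N2 worms. The negative count ranged from 3 to 9 with each array left out. In N2 starved and fed arrays were apart, and in the mutant the starved array 2 was the lowest of all. Without N2 starved arrays 1 and 3 the median was -0.08, with 36 of 48 negative, 6 rises in the mutant and 2 in N2.

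Of 51 oocyte and eggshell genes, 6 (11.8%) were negative and 0 positive at an unadjusted p under 0.05, and 13 rose in the mutant and 31 in N2. The negative count was 1 without the N2 starved array 3 and 11 without array 1, and 21 rose in N2 without array 3. *pos-1*, a maternal RNA-binding protein gene, read 11.71, 11.56, 11.78 and 11.69 in starved and 11.55, 11.66, 11.53 and 11.48 in fed mutant worms, which overlapped, against 11.89, 11.88, 12.03 and 11.84 in starved and 11.52, 11.49, 11.41 and 11.63 in fed N2 worms. Its starved N2 arrays lay above those of the other 3 groups, and it rose by 0.40 in N2 with 0.13 in the mutant. *puf-8*, an RNA-binding regulator of germ cells, had the same effects, 0.13 in the mutant and a rise of 0.40 in N2, and *egg-5*, of the oocyte surface at egg activation, rose by 0.24 in N2 with -0.02 in the mutant. The family's median was -0.12 on all arrays and -0.13 without N2 starved arrays 1 and 3, where 17 rose in the mutant and 16 in N2.

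Germ granule and small RNA genes had a median of -0.15, with 38 of 43 negative on all arrays and also without N2 starved arrays 1 and 3, and 1 (2.33%) at an unadjusted p under 0.05, *glh-2*, a germ line helicase gene (-0.44). *nos-2* (-0.43) and the Argonaute genes *ergo-1* (-0.21) and *wago-4* (-0.24) rose in N2 by 0.59, 0.31 and 0.29, with 0.15, 0.10 and 0.05 in the mutant. Sperm-specific genes had a median of -0.08 over 87, with 31 falls in the mutant and 10 in N2, and *nspc-3* and *ssp-16* had interactions of -0.64 and -0.41. The 21 dosage compensation genes, of which 18 were negative, included *sdc-1* (-0.52), which rose by 0.50 in N2 with -0.02 in the mutant.

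**Figure D4:**
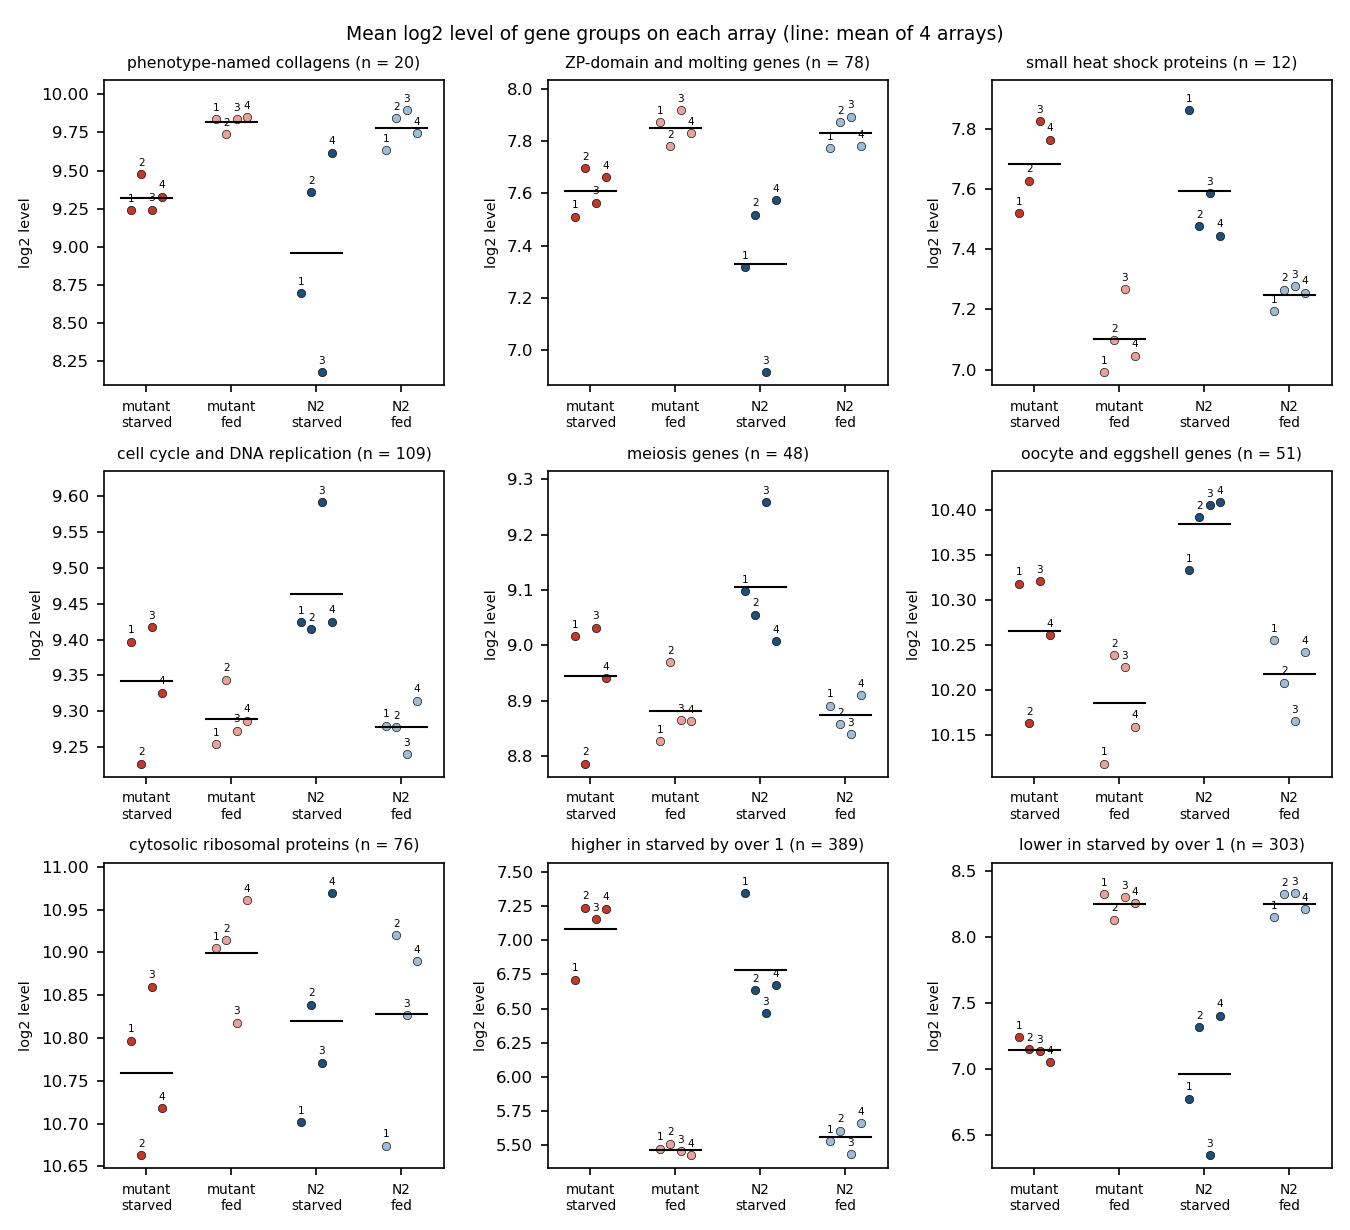
Mean log2 level of 7 families and of the genes that rose (389) or fell (303) by over 1 with starvation, on each array (points with replicate number), in starved mutant, fed mutant, starved N2 and fed N2 worms, with the mean of 4 arrays as a line. The N2 starved arrays 1 and 3 are the lowest for the cuticle families, and in the cell cycle and oocyte panels the starved N2 arrays lie above all fed N2 arrays.

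Genes of protein synthesis had small negative interactions too. Of 76 cytosolic ribosomal protein genes, 67 (88.2%) were negative, against 54.4% of all genes, with a median of -0.11, and 5 (6.58%) at an unadjusted p under 0.05. The family was bright, and the share of all genes includes dim ones. In the mutant 13 (17.1%) fell, near the 14.3% of all genes, and 0 rose, and in N2 2 (2.63%) fell and 1 rose. The mutant falls numbered 5 without the mutant starved array 4. *rpl-36A* fell by 0.52 in the mutant with 0.16 in N2. It read 9.42, 9.26, 9.18 and 9.30 in starved and 9.80, 9.96, 9.66 and 9.82 in fed mutant worms, which did not overlap, against 9.31, 9.44, 9.83 and 9.89 in starved and 9.04, 9.48, 9.62 and 9.71 in fed N2 worms, which did. *rps-13* fell by 0.39 in the mutant with 0.10 in N2. Without N2 starved arrays 1 and 3 the family's median was -0.17, with 71 of 76 negative and 12 at an unadjusted p under 0.05. The family's mean level nevertheless overlapped between starved worms of the strains, at 10.66 to 10.86 in the mutant and 10.70 to 10.97 in N2.

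Mitochondrial ribosomal protein genes had 62 of 70 (88.6%) negative, a median of -0.12, and 12 falls (17.1%) in the mutant against 2 (2.86%) in N2, and 5 in the mutant without its starved array 2. *mrpl-54* had -0.52. Among 32 aminoacyl-tRNA synthetases, which charge transfer RNAs, 28 were negative, and *mars-2* fell by 0.33 in the mutant with 0.12 in N2. Nucleolar, DEAD-box and WD-repeat genes had a median of -0.13 with 1 (1.92%) at an unadjusted p under 0.05, *ddx-46* (-0.35), while *nol-10*, *nol-6* and *wdr-54* had -0.23, -0.19 and 0.26, and their median without N2 starved arrays 1 and 3 was -0.06. The 33 proteasome subunits had a median of -0.05, 27 of them negative.

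Nutrient signalling genes of the pathways that the study follows had interactions near 0 in RNA level. The study followed HLH-30 by its place in the cell and Rag GTPases as proteins in mammalian cells, which these RNA levels do not measure. *daf-16* rose by 0.58 in the mutant and 0.53 in N2 (interaction 0.05, 95% interval -0.16 to 0.25), and *daf-2*, the insulin-like receptor gene, by 0.64 in the mutant and 0.75 in N2 (-0.11, -0.40 to 0.17). *hlh-30* rose by 0.21 in the mutant and had 0.15 in N2 (0.07, -0.15 to 0.29). *raga-1* and *ragc-1*, which encode Rag GTPases, and *let-363*, the TOR kinase gene, had interactions of -0.05, -0.13 and -0.02, with intervals inside -0.39 to 0.18. The TORC1 and Rag pathway as a whole had 0 of 20 at an unadjusted p under 0.05, with 3 rises in the mutant and 6 in N2. Its median interaction was -0.07, and 17 of 20 were negative, against 54.4% of all genes, a share that includes dim ones. Of the insulin receptor pathway *aap-1*, the adaptor subunit of phosphatidylinositol 3-kinase, rose by 0.40 in N2 with 0.05 in the mutant (-0.35).

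Insulin-like peptide genes had a positive median, 0.10 over 40 genes, and 11 rises in the mutant against 5 in N2. *ins-20* rose by 1.76 in the mutant and 0.84 in N2, and *ins-4* by 0.98 in the mutant with 0.32 in N2. AMP-activated protein kinase genes and partners had a median of -0.12, with 12 of 16 negative and 0 at an unadjusted p under 0.05. In the mutant 5 rose, against 8 in N2. The family's median was -0.03 without the N2 starved arrays 1 and 3. *crtc-1*, a transcription coactivator under the kinase, rose by 0.55 in the mutant and 0.33 in N2. *aakg-5*, a gamma subunit, rose by 0.47 in N2 with 0.24 in the mutant, and *par-4* and *strd-1*, of the LKB1 kinase complex, had -0.29 and -0.21. *dct-8*, of the DAF-16 downstream genes, read 5.70, 6.90, 6.03 and 6.79 in starved and 4.90, 4.71, 4.52 and 4.26 in fed mutant worms, and 5.12, 3.97, 4.63 and 5.09 in starved and 4.61, 4.74, 3.80 and 4.62 in fed N2 worms. Every starved mutant array lay above the arrays of the other 3 groups.

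Of 32 autophagy genes 11 rose in the mutant and 12 in N2, with a median interaction of 0.04. The N2 count was 8 without the N2 starved array 1, 6 without array 3, 2 without both and 4 without the fed array 3. *sqst-1*, the gene of the autophagy receptor p62, rose by 1.31 in the mutant and 0.71 in N2, with an interaction of 0.60 (95% interval 0.08 to 1.12). Its levels were 9.97, 10.80, 10.68 and 10.76 in starved and 9.52, 9.07, 9.23 and 9.17 in fed mutant worms, and 10.68, 10.07, 10.07 and 10.06 in starved and 9.49, 9.58, 9.47 and 9.53 in fed N2 worms. The starved mutant array 1 was level with 3 N2 arrays and the N2 starved array 1 with the other mutant arrays. *epg-9* had 0.27, and *atg-9* rose by 0.30 in the mutant and 0.27 in N2 (0.03, -0.20 to 0.26). Of 19 V-ATPase subunits, the proton pump of the lysosome, 11 fell in the mutant and 12 in N2, with a median of 0.01 and 0 at an unadjusted p under 0.05.

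The lysosomal lipases did not move as a group. *lipl-1* fell by 0.79 in the mutant and 0.68 in N2, *lipl-2* rose by 0.84 in the mutant and 1.05 in N2, and *lipl-5* fell by 0.24 in the mutant with -0.19 in N2. Of 8 such genes 1 had an interaction below the unadjusted threshold, *lipl-3* at 0.37 (95% interval 0.05 to 0.68), with effects of 0.28 in the mutant and -0.09 in N2 that both missed the threshold, at low levels of 4.28 to 4.58 in starved mutant and 3.94 to 4.11 in starved N2 worms. *lips-15*, another lipase gene, rose by 0.48 in the mutant with 0.13 in N2.

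The lips class of lipases had a median of 0.12, with 11 of 16 positive, and 24 sphingolipid enzymes had -0.07, with 16 negative. The median was -0.005 for 42 fatty acid oxidation genes, 0.02 for 21 desaturation, elongation and synthesis genes, 0.05 for 23 acyl-CoA synthetases and 0.02 for 17 fatty acid binding proteins. *fat-6*, a delta-9 desaturase gene, rose by 0.60 in the mutant with 0.03 in N2, *acs-17* by 0.56 in the mutant with 0.06, and *hacd-1* had 0.75. *far-3* and *far-2*, which encode fatty acid and retinol binding proteins, had opposite interactions of 1.17 and -1.05. The 5 vitellogenins all had negative interactions, with a median of -0.20. With starvation 2 of them rose and 2 fell in the mutant, and 3 rose and 2 fell in N2. *vit-1*, a yolk protein gene, fell by 1.84 in the mutant and 1.31 in N2 (-0.52, 95% interval -0.84 to -0.21). It read 7.76, 7.48, 7.48 and 7.34 in starved and 9.11, 9.52, 9.32 and 9.46 in fed mutant worms, against 8.08, 7.94, 8.05 and 7.99 in starved and 9.37, 9.36, 9.14 and 9.44 in fed N2 worms. The starved groups did not overlap and the fed groups did. Annotated vitellogenins resemble each other in sequence, so their probe sets may share signal.

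In central metabolism the glycolysis and respiratory chain families had more negative members than the 54.4% of all genes, and the others were nearer to that share. Of 24 glycolysis and gluconeogenesis genes 19 (79.2%) were negative, with 2 (8.33%) at an unadjusted p under 0.05, *pfk-1.1*, the phosphofructokinase gene, which fell by 0.40 in the mutant with -0.09 in N2, and *pck-3*, a phosphoenolpyruvate carboxykinase gene, which fell by 0.36 with -0.04. Of 46 respiratory chain and ATP synthase genes 35 (76.1%) were negative, and 13 fell in the mutant against 7 in N2. *mev-1*, a succinate dehydrogenase subunit gene counted with the TCA cycle, fell by 0.26 in the mutant with 0.07 in N2. Of the 63 amino acid metabolism genes 35 (55.6%) were negative, 31 fell in the mutant and 25 in N2, with a median interaction of -0.04.

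Among the amino acid genes *odc-1*, which encodes ornithine decarboxylase of polyamine synthesis, had 0.88 (95% interval 0.32 to 1.45). It read 9.60, 10.26, 9.64 and 10.21 in starved and 9.57, 9.23, 9.33 and 9.41 in fed mutant worms, and 9.33, 8.85, 8.55 and 8.99 in starved and 9.23, 9.59, 8.86 and 9.38 in fed N2 worms. It rose by 0.55 in the mutant, had an effect of -0.34 in N2, and its starved groups did not overlap. *cbs-1*, of transsulfuration, fell by 0.66 in N2 with -0.19 in the mutant, and *bcat-1*, of branched-chain amino acid breakdown, had 0.40.

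Detoxification and stress enzymes were mixed. Of 75 cytochrome P450 genes 6 (8%) were positive and 2 (2.67%) negative, and *cyp-43A1* fell by 0.52 in N2 with -0.11 in the mutant. Of 93 carboxylesterase and O-acyltransferase genes 1 (1.08%) was positive and 7 (7.53%) negative, which turned round to 11 positive and 5 negative without the N2 starved array 1. In this family *cest-31* and *ges-1*, the gut esterase gene, fell by 0.65 and 0.41 in the mutant with -0.12 and -0.13 in N2. Superoxide dismutases, catalases and peroxiredoxins had a median of -0.15 over 26 genes with 2 (7.69%) negative. *ctl-1*, a catalase gene, rose by 0.52 in N2 with 0.21 in the mutant, and *gpx-7*, *sod-2* and *prdx-6* had -0.41, -0.29 and -0.34. The median of this family was -0.07 without the N2 starved array 3 and -0.06 without arrays 1 and 3. *gst-43*, a glutathione S-transferase gene, fell by 0.44 in the mutant with 0.10 in N2, and *stdh-3*, a short-chain dehydrogenase gene, rose by 1.62 in the mutant with 0.29 in N2. *mtl-2*, the second metallothionein, rose by 1.10 in the mutant with 0.51 in N2, opposite in the sign of its interaction (0.59) to *mtl-1*. Neither interaction reached an unadjusted p under 0.05 by limma.

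Of the transport families, *aqp-9*, an aquaporin gene, fell by 0.79 in the mutant with -0.04 in N2, and *swt-1*, a sugar transporter gene, had 0.69. Transthyretin-like genes, small secreted proteins, had 5 (8.62%) positive and 1 (1.72%) negative of 58, with 1 to 9 positive when each array was left out in turn, and *ttr-20* rose by 0.76 in the mutant with 0.05 in N2. *fipr-23* and *fipr-14*, of the fungus-induced peptide class, rose by 0.80 and 1.01 in the mutant with 0.06 and 0.30 in N2. *spp-5*, a saposin-type gene, had -0.73.

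The chemosensory receptor genes, the largest family, were slightly positive. Of 1359 genes 149 rose and 30 fell in the mutant and 64 rose and 27 fell in N2, and the interaction was positive at an unadjusted p under 0.05 in 55 (4.05%) and negative in 22 (1.62%), with a median of 0.05. The positive count was 90 without the N2 starved array 1, where that of all genes was 1242, and 37 without the mutant starved array 2, where that of all genes was 518. Their mean level was low, between 3.88 and 4.10 on all arrays, against array medians of 5.80 to 5.85. *srx-17* and *srw-69* had 0.61 and 0.81 and *srx-97* had -0.42. When dim probe sets were left out, the genes at an unadjusted p under 0.05 over the whole array numbered 267 positive and 764 negative.

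Over the nuclear chromosomes, the median interaction was lowest on I (-0.06) and III (-0.06) and highest on V (0.01) and X (0.01). At an unadjusted p under 0.05, 1.9% of 3257 genes on I were positive and 5.25% negative, and 1.85% and 4.82% of 3130 genes on III. Chromosome V, which carries many chemosensory receptor genes, had 3.94% positive and 2.96% negative among 6085 genes, and X had 2.59% and 2.75% of 4908. Protein-coding genes had a median of -0.03 over 18812 and non-coding RNA genes one of 0.02 over 5972.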

How the data were processed

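Total RNA of whole worms was labelled with the Ambion WT kit and hybridised to Affymetrix *C. elegans* arrays, 1 sample an array, 4 arrays a group. The authors deposited 1 log2 value for each probe set and array. Notes of the submitters name RMA and Partek without a version. RMA removes a shift that most genes of an array share, so all effects are relative to the bulk of genes. No scanner intensities were used; precision depends on how many arrays each group has.

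The platform annotation paired 25546 probe sets with 1 gene symbol and 646 with several, and 3125 were not listed. Of the 37 genes with several probe sets the one of highest mean was kept, which left out 48, and in 4 of them the choice of probe set changed the interaction call at the unadjusted threshold. RefSeq entries matched 25447 of the 25498 genes (WBcel235), and 0 symbols changed.

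Limma 3.58.1 in R 4.3.3 fitted 4 group means to all 16 arrays (12 residual degrees of freedom), with Benjamini-Hochberg adjustment over 25498 genes and a threshold of 0.05. Families were defined by symbol patterns and are described by counts and medians without a test. Named were the 10 genes of smallest interaction p in each direction, the 4 members of smallest p in the 6 families of highest and the 6 of lowest median, up to 3 members in other families, and the 5 largest mean rises and falls. Added to these were *alfa-1*, worm genes the study names, and the worm Rag GTPase and TOR kinase genes. The members and lists were chosen with earlier results of these data known. The fit was tested on simulated data. Figures used Python 3.11.15, pandas 2.3.3 and matplotlib 3.10.9. Promoter sequences were not analysed here. Alternatives were each array left out, a replicate block, median centring, quantile and cyclic loess normalization, array weights, a prior trend, removal of dim probe sets (mean level not above the array-wide median), every probe set, ordinary least squares and, added after the data were seen, N2 starved arrays 1 and 3 left out together.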

Additional observations from a re-analysis of the deposited data

Results flagged for a closer look

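In groups of 4 arrays, 27 of the 624 checked (568 of single genes and 56 of family means) held 1 array far from the other 3 by Dixon's ratio, which chance alone gives in about 1 of 20 groups. The largest number concerned starved N2 worms. Array 3 was high for the mean level of germ granule genes (9.25, others 9.05 to 9.07), cell cycle genes (9.59, others 9.41 to 9.43), superoxide dismutases, catalases and peroxiredoxins (7.84, others 7.73 to 7.74) and for *nol-6* (9.35, others 9.17 to 9.19). It was low for the mean of patched-related genes (7.22, others 7.78 to 7.87), for *daf-6* (5.62, others 6.94 to 7.18) and for *fbxb-21* (4.54, others 4.79 to 4.84). Array 1 of the same group was high for *sqst-1* (10.68, others 10.06 to 10.07) and low for *cyb-2.1* (8.92, others 9.03 to 9.05) and *gst-43* (6.56, others 6.74 to 6.77).

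In starved mutant worms, array 1 was low for *sqst-1* (9.97, others 10.68 to 10.80), *hlh-30* (10.32, others 10.37 to 10.38), *C11E4.10* (4.68, others 5.05 to 5.12) and the mean of the genes that rose by over 1 (6.71, others 7.16 to 7.24). Array 2 was low for *nol-10* (9.80, others 10.06 to 10.11). For *sqst-1* and the genes that rose by over 1, the starved array 1 of the mutant was thus the lowest of its group and that of N2 the highest of its own, while *alfa-1* followed the labels on both arrays.

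In fed mutant worms, array 2 was high for *Y19D10B.4* (4.0, others 3.78 to 3.80) and *sod-2* (8.61, others 8.32 to 8.36) and low for *aakg-5* (9.59, others 9.75 to 9.77) and the mean of the collagens named by phenotype (9.74, others 9.84 to 9.85). Array 3 was high for *srw-69* (4.65, others 4.25 to 4.29), array 4 high for *srx-97* (4.21, others 4.01 to 4.04) and low for *R11A5.3* (5.03, others 5.15 to 5.17). In fed N2 worms, array 4 was high for *Y19D10B.4* (4.95, others 4.65 to 4.70), array 2 high for *R11A5.3* (5.87, others 5.41 to 5.47) and low for *hsp-43* (10.39, others 10.51 to 10.52), array 1 low for *dpy-8* (8.98, others 9.35 to 9.42), and array 3 low for *dct-8* (3.80, others 4.61 to 4.74).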

How the results depend on the processing

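Of 4214 values recomputed for 164 results, 4135 were classed as the same, 47 reversed, 31 moved and 1 gained calls. For the 142 single genes this class took the sign and the adjusted call only, so their size could change within it. The interaction had 0 genes at an adjusted p under 0.05 in every fit that gave one, and 1641 at an unadjusted p. With 4 arrays a group, differences within the intervals given, and also larger ones, could be missed after adjustment. Dim probe sets compress fold changes. The causes of the changes below were not tested.

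Leaving out 1 array at a time gave 518 to 1242 positive and 637 to 1495 negative genes at an unadjusted p, and medians of 0.068 to 0.423 for antimicrobial peptides, 0.113 to 0.352 for patched-related genes, -0.156 to -0.071 for superoxide dismutases, catalases and peroxiredoxins and -0.011 to 0.35 for genes that fell by over 1. Interactions near 0 changed sign: *acs-2* (-0.33 to 0.27), *atg-9* (-0.02 to 0.08), *clec-258* (-0.57 to 0.10), *cyp-35A3* (-0.33 to 0.19), *hil-1* (-0.25 to 0.11) and *let-363* (-0.07 to 0.01).

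Without N2 starved arrays 1 and 3 (added after the data were seen), 1068 genes were positive, 3514 passed for starvation in N2, and medians were -0.27 for collagens named by phenotype, 0.105 for patched-related genes, 0.032 for zona pellucida-domain and molting genes, 0.405 for small heat shock proteins, -0.041 for hedgehog-related genes, -0.08 for meiosis genes, -0.063 for superoxide dismutases, catalases and peroxiredoxins, -0.06 for nucleolar genes, -0.033 for AMP-activated protein kinase genes and -0.225 for genes that fell by over 1. *F35D2.1* was at -0.01, *daf-2* 0.01, *dpy-8* -0.04, *hil-1* 0.26, *let-363* 0.04 and *lipl-2* 0.07.

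After cyclic loess, medians were -0.082 for meiosis genes, -0.086 for superoxide dismutases, catalases and peroxiredoxins, -0.068 for cell cycle genes, -0.05 for nucleolar genes and -0.024 for AMP-activated protein kinase genes, with *acs-2* at 0.08, *cyp-35A3* 0.04, *hil-1* 0.01, *let-363* 0.03, *lipl-5* 0.02 and *raga-1* 0.01. After quantile normalization *acs-2* was at 0.02 and *let-363* at 0. With array weights 1313 genes were positive and 1380 negative, medians were -0.054 for superoxide dismutases, catalases and peroxiredoxins and -0.08 for genes that fell by over 1, *hil-1* was at 0.09 and *let-363* at 0. Without dim probe sets 267 genes were positive and small heat shock proteins had -0.149. With a fold of at least 1.5, 2525 genes passed for food, 1205 up and 1320 down.

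With the replicate number as a block, 620 genes were positive and 815 negative at an unadjusted p, 0 after adjustment, and 5898 (mutant) and 5207 (N2) passed for starvation. Same-numbered arrays correlated between -0.472 and 0.149 in their deviations, over 0.1 in 4 of 24 pairs, so the numbers were not treated as pairs. Promoter motifs were not run.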
